A study of Mus musculus with 10 samples.

Results

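The 8 genes described here encode interleukin 2 (Il2), the 3 chains of its receptor (Il2ra, Il2rb and Il2rg), the kinases bound to those chains (Jak1 and Jak3) and the STAT5 transcription factors that the kinases activate (Stat5a and Stat5b). They were taken by name, with earlier results of these data known, from the 55809 gene rows of a bulk RNA-seq data set of regulatory T (Treg) cells. The libraries came from pooled spleen and lymph nodes of mice with the Foxp3-AID allele, from which the cells make Foxp3 joined to a degron tag that responds to auxin, along with a ZsGreen reporter and Cre recombinase. In Foxp3-AID ROSA26-TIR1(F74G) mice, called R26-TIR1(F74G) below, the ROSA26 allele encodes the plant E3 ligase TIR1 with a mutated auxin pocket and an mCherry reporter, and a floxed STOP cassette confines it to cells in which Foxp3-driven Cre has acted. In Foxp3-AID ROSA26-WT mice, called R26-WT, this ligase is absent. Both groups received 5-ph-IAA, the auxin analog that directs the fusion protein to the ligase, for 14 days, so only the 6 R26-TIR1(F74G) libraries and not the 4 R26-WT libraries came from cells in which Foxp3 protein can be degraded. The labels do not state sex, age or the way the cells were sorted. In all 10 libraries Xist, the RNA of the inactive X chromosome, was at 0 to 7 read pairs and the Y-linked gene Ddx3y at 3926 to 10683, the pattern of male cells. Foxp3 is X-linked, so in a male every Treg cell carries the degron allele, and effects of Foxp3 loss within a cell and effects of changed surroundings cannot be told apart. The study's general scheme gates on ZsGreen, and also on mCherry for cells with TIR1, and where that scheme was used the gate and the genotype cannot be told apart.

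IL-2 binds a receptor of 3 chains. The alpha chain (CD25) raises affinity, and the beta and gamma chains carry the signal. JAK1 and JAK3 sit on the beta and gamma chains and phosphorylate STAT5, which moves to the nucleus and activates genes of survival, growth and feedback control. Treg cells make almost no IL-2 themselves, carry large amounts of CD25 and depend on IL-2 from other T cells, and Foxp3 is known both to repress Il2 and to act at Il2ra. The comparison asked whether the transcripts of this signalling chain differed after loss of the Foxp3 protein.

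Libraries held between 24158699 and 54795718 counted read pairs, and the filter on low counts, a mean of 10 or more over the 10 libraries, kept 16363 genes, all 8 described here among them. Tests were run with DESeq2 on all of these genes with genotype as the only term, and a gene was called at a Benjamini-Hochberg adjusted p under 0.05. Of the genes tested, 1.74% were called, 1.4% with a higher and 0.336% with a lower level in R26-TIR1(F74G). The edgeR quasi-likelihood test called 0.373% and limma voom with sample quality weights 0.489%. The titles of the libraries give a genotype and a replicate number of its own for each. On that basis the libraries were taken as separate mice, and all SEs and p-values rest on it. The spread between them holds technical variation as well. Foxp3 itself, whose transcript the degron does not target, was at 8930 ± 2366 normalized counts (SD, n = 4) for R26-WT and at 9401 ± 3415 (SD, n = 6) for R26-TIR1(F74G). In the latter, replicate 7 stood at 16059 and the others at 6778 to 9851. The log2 fold change was 0.074 (SE 0.25), and it turned to −0.15 without that replicate.

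The cell type was checked against marker genes. All 8 Treg and CD4 T cell markers were present, with a summed level of 155769 to 172228 normalized counts in R26-WT and 148905 to 165099 in R26-TIR1(F74G). Of these 0 were called by DESeq2 or edgeR, 2 had an unadjusted DESeq2 p under 0.05, beside 6.86% of all genes tested, and the median log2 fold change was −0.13. The 2 were Ctla4, an inhibitory receptor, with −0.31 (SE 0.13, unadjusted p 0.0204) and 5 of 6 R26-TIR1(F74G) libraries below the lowest R26-WT library, and Tnfrsf18, which encodes GITR, with −0.42 (SE 0.19, unadjusted p 0.0272) and all 6 below the R26-WT median. In the fit with a surrogate variable described below for Il2ra, Tnfrsf18 was called lower (−0.30, SE 0.07, DESeq2 adjusted p 0.00108) and Cd4 higher (0.20, SE 0.062, adjusted p 0.0347). These 3 genes are named after their values were seen. Il2rb is also abundant on NK cells and memory CD8 T cells. The 8 markers of those cells summed to 1923 to 2600 in R26-WT and 1918 to 2503 in R26-TIR1(F74G), with Ncr1, a defining NK cell receptor, at 0 in all libraries. Cd8b1 was the most abundant, with means of 1478 in R26-WT and 1265 in R26-TIR1(F74G). Cd8a, Klrd1, Klrb1c and Gzma were at most 46.51 normalized counts in any library, and these are named after their values were seen. Of the 7 genes of that list that were tested, 3 had a log2 fold change above 0 and 4 below. Of them 1 was called higher, beside 1.4% of all genes tested. It was the T-box factor Eomes, which was higher in R26-TIR1(F74G) by 1.47 on the log2 scale (SE 0.23, adjusted p 4.54e-08 by DESeq2) and is named here after its value was seen. B cell markers (6 genes) summed to 847.1 to 1378 in R26-WT and 753.6 to 1456 in R26-TIR1(F74G), with Cd79b the most abundant. Of the 3 tested, 1 was called higher, beside 1.4% of all genes tested. This was the B cell receptor regulator Cd22, with 5.074 to 15.46 normalized counts in R26-WT and 23.62 to 272.5 in R26-TIR1(F74G). Its log2 difference was 2.68 (SE 0.63, adjusted p 0.00266 by DESeq2 and 0.23 by edgeR), and Cd22 is named after its value was seen. Without R26-TIR1(F74G) replicate 9, its highest library, it was 1.7, and of the 10 fits without 1 library 4 called it and 6 gave it no p. The other 2 B cell markers tested, the receptor chains Cd79a and Cd79b, had −0.24 (SE 0.18) and −0.33 (SE 0.2). The myeloid list (8 genes, Cd14 at 0) summed to at most 53.35 and the mast cell and basophil list (4 genes) to at most 157.9 with Mcpt8, Fcer1a and Ms4a2 at 0. The list that moved most clearly with genotype was that of proliferation, whose 10 markers summed to 6018 to 9156 in R26-WT and 9254 to 15880 in R26-TIR1(F74G), without overlap, and 7 of the 10 were called higher by DESeq2, beside 1.4% of all genes tested called higher. By edgeR 3 of the 10 were called, beside 0.373% of all genes. Among 10 activated Treg markers 1 gene was called higher and 1 lower (sums of 16617 to 18477 and 15461 to 23331), and among 8 resting T cell markers 1 was called higher (sums of 381603 to 402738 and 367961 to 422764), while edgeR called 0 of either list. Over all genes tested DESeq2 called 1.4% higher and 0.336% lower. In bulk libraries fewer cells of a kind and less RNA per cell cannot be told apart, and the part of these states in the results below was not tested.

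The promoter of Il2 is shown because Foxp3 acts there together with NFAT, and because NFAT and AP-1 sites are the textbook entry points of T cell activation at this gene. The promoter of Il2ra is shown beside it as that of the receptor chain with the largest difference below. Each run is the 250 bases before the RefSeq transcription start on the gene's own strand, in build GRCm38.p6, at chr3:37125955-37126204 (minus strand) and chr2:11642542-11642791 (plus strand). Capitals mark GGAAA, the core of an NFAT site, on either strand.

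Il2: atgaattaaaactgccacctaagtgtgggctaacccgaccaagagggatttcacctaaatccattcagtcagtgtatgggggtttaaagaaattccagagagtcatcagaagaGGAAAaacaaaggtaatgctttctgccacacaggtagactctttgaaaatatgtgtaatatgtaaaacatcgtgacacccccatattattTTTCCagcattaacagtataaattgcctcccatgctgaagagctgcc

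Il2ra: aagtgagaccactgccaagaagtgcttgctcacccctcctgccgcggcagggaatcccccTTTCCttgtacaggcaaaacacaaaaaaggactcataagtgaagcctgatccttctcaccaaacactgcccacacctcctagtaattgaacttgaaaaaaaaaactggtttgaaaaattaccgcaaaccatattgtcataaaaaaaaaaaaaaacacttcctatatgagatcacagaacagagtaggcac

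The Il2 run held 2 GGAAA matches, 137 bases before the start on the gene's strand and 47 bases before it on the opposite strand, and the Il2ra run held 1, on the opposite strand. Of 32851 RefSeq promoter windows of this length 55.6% held at least 1 such match. Neither run held the AP-1 consensus TGANTCA (in 6.75% of the windows) or the STAT5 consensus TTCNNNGAA (in 7.02%), each searched on both strands. None of the windows of the other 5 genes with a RefSeq promoter, Il2rg, Jak1, Jak3, Stat5a and Stat5b, held either consensus. Il2rb was not matched. These are matches of letters in a short window and say nothing about binding.

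The genes lie on 7 chromosomes, as annotated in the files (GRCm39). Il2 is at chr3:37174672-37180108, Il2ra at chr2:11647618-11698004, Il2rb at chr15:78363456-78379471, Il2rg at chrX:100307984-100311861, Jak1 at chr4:101009564-101122479 and Jak3 at chr8:72128940-72143219. Stat5b (chr11:100671557-100741550) and Stat5a (chr11:100750177-100775995) are neighbours on opposite strands. Read pairs falling on more than 1 gene were left out of the counts, which bears on Il2rg, with 30.5% of its exon bases inside Gm20489 on the same strand, and on Jak3, with 7.55% inside Insl3. Jak1 shared 0.0554% of its exon bases with Raver2 and Stat5a 1.01% with Stat3. The other 4 genes shared no exon base with another gene. Shared sequence was counted as 50-base stretches found also, on either strand, in transcripts of another gene, in a later annotation release than that of the files. A shared stretch can be a similar sequence elsewhere or the same place in the genome given to more than 1 gene. These were not told apart. Stat5a and Stat5b had 612 such stretches in common, 7.45% of those of Stat5b. In Stat5a 1081 stretches, or 12.3%, were shared with any other gene. Read pairs lying wholly within a sequence that occurs elsewhere in the genome cannot be assigned with certainty. The share was 15.2% for Jak1 (mainly with Raver2), 14.2% for Jak3 (mainly with B3gnt3), 12.6% for Il2 (with Ntan1), 6.63% for Il2rb (with Gm62993), 1.89% for Il2ra (mainly with Gm22146) and 0 for Il2rg.

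Levels were compared between genes only per length, as TPM, a gene's share of all transcripts in its library after division by exon length. The signal-carrying receptor chains stood highest, with medians over the 10 libraries of 1040 TPM for Il2rg (862 to 1170) and 880 for Il2rb (724 to 1340). These neighbours did not separate, since Il2rg was above Il2rb in 6 of 10 libraries. Il2rg and Jak3 have 30.5% and 7.55% of their exon bases inside another gene, where read pairs were not counted. Their TPM may therefore be too low, and their order against close neighbours is not settled. Jak1 followed with a median of 426 TPM (238 to 672), below Il2rb in every library. Il2ra came next with 194 TPM (141 to 329), below Jak1 in all 10 libraries and above Jak3 in all 10. Jak3, the kinase of the gamma chain, had a median of 168 TPM (91.1 to 279) and Stat5b 156 (116 to 246), and their order held in only 5 of 10 libraries. Stat5a was lower at 69.0 TPM (48.1 to 90.8), below Stat5b in all 10. Il2 was at 0.752 TPM (0.11 to 1.24), far under the others in both genotypes.

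**Figure D1:**
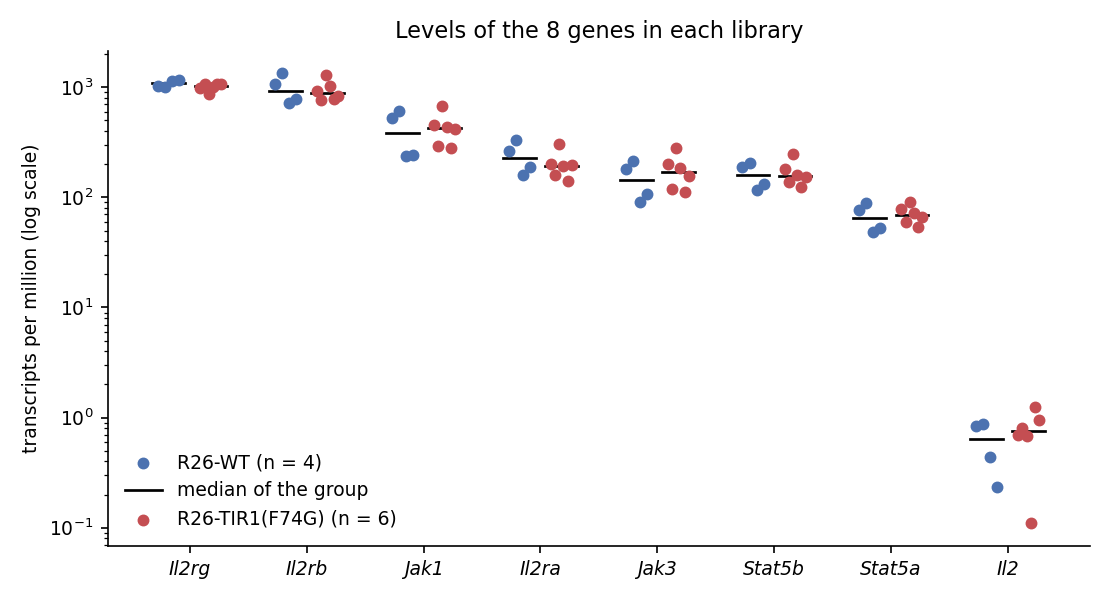
Levels in TPM (log axis) of the 8 genes, ordered by their median, with 1 point per library (4 R26-WT, 6 R26-TIR1(F74G)) and a bar at each group's median. The groups overlap for every gene, and Il2 lies between 0.11 and 1.24 TPM while Il2rg lies between 862 and 1170.

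Between genotypes, 0 of the 8 genes were called by DESeq2, edgeR or limma voom, and 0 had an unadjusted DESeq2 p under 0.05, which 6.86% of all genes tested had. In all 8 the normalized counts of the groups overlapped, while 2.37% of all genes tested did not overlap. Of the 8 log2 fold changes, 5 were above 0 and 3, those of the receptor chains, below 0, with a median of 0.011 beside 0.00063 for all genes tested. The DESeq2 adjusted p was 0.99996 for each of the 8. A value that misses the threshold does not show equal levels, and each gene is given below with the 95% interval of its fold change.

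Il2ra, the CD25 chain, had the largest difference among the receptor, kinase and STAT genes in the genotype-only DESeq2 fit. In R26-WT replicates 1 to 4 its normalized counts were 21261, 25710, 14611 and 17083, and in R26-TIR1(F74G) replicates 5 to 10 they were 16209, 14109, 22758, 15450, 12248 and 15870. R26-WT replicates 1 and 2 and R26-TIR1(F74G) replicate 7 were high, 5 of 6 R26-TIR1(F74G) libraries were below the R26-WT median and 2 were below its lowest library. The log2 fold change was −0.29 (SE 0.20, 95% interval −0.68 to 0.1, unadjusted p 0.151), which as a ratio is 0.819 with an interval of 0.624 to 1.08. Without any 1 library it lay between −0.41 and −0.13, and it was called in 0 of those 10 fits. The smallest size, −0.13, came without R26-WT replicate 2. Jak3 had a larger difference than Il2ra in that fit (0.37), in some of the other fits without 1 library, and in limma voom (0.27 for Jak3 and −0.26 for Il2ra).

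The result for Il2ra changed when the fit had a term for variation other than genotype. Adding 1 surrogate variable, a score per library that sva estimates from the counts themselves, left the difference at −0.40 (SE 0.052, 95% interval −0.5 to −0.3, DESeq2 adjusted p 5.2e-12), a ratio of 0.759. In that fit 4.54% of all genes tested were called, 2.86% higher and 1.68% lower, and Il2ra was the only 1 of the 8 called. It was called as well in each of the 10 such fits that left out 1 library (−0.42 to −0.36, largest adjusted p 5.46e-06) and with the same variable in edgeR (−0.40, adjusted p 0.000618), which called 2.54% of all genes. The fit treats the estimated score as known, so its SE leaves out the error of that estimate. Removal of each library's trend over gene length and GC content gave −0.34 (SE 0.13, DESeq2 adjusted p 0.226), short of the threshold.

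Il2rb, the beta chain that binds JAK1 and STAT5, had normalized counts of 64471, 78774, 50294 and 52448 in R26-WT and 55621, 50495, 72721, 61374, 50824 and 51156 in R26-TIR1(F74G). All R26-TIR1(F74G) values lay within the R26-WT range. Its log2 fold change was −0.11 (SE 0.17, 95% interval −0.43 to 0.22), and it was 0.034 without R26-WT replicate 2. With the surrogate variable it was −0.18 (SE 0.062, DESeq2 adjusted p 0.0686), which missed the threshold in that fit and passed it only without R26-TIR1(F74G) replicate 8 (−0.20, adjusted p 0.0293) or replicate 9 (−0.21, adjusted p 0.0299).

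Il2rg encodes the common gamma chain, which the receptors of IL-4, IL-7, IL-9, IL-15 and IL-21 also use. Normalized counts were 34565, 33091, 44647 and 43859 in R26-WT and 32823, 39157, 26767, 33755, 39405 and 36023 in R26-TIR1(F74G). Here R26-WT replicates 3 and 4 were high and R26-TIR1(F74G) replicate 7 was lowest, the reverse of Il2ra. The log2 fold change was −0.17 (SE 0.15, 95% interval −0.46 to 0.12), and −0.093 (SE 0.039, DESeq2 adjusted p 0.197) with the surrogate variable.

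For the kinases the spread within a group was wide. Jak1 had 53815, 59763, 27873 and 27930 normalized counts in R26-WT and 45753, 32668, 63175, 43837, 31151 and 43130 in R26-TIR1(F74G), a 2.14-fold range within R26-WT alone. Its log2 fold change was 0.032 (SE 0.26, 95% interval −0.48 to 0.55), and it turned to −0.089 (SE 0.06) with the surrogate variable and −0.017 (SE 0.17) with the trend removed. Jak3, which binds the gamma chain, had 13680, 15665, 7908 and 9086 in R26-WT and 15095, 9911, 19387, 13807, 9073 and 11774 in R26-TIR1(F74G). The same libraries were high and low as for Jak1. The log2 fold change of Jak3 was 0.19 (SE 0.25, 95% interval −0.3 to 0.67), 0.041 (SE 0.061) with the surrogate variable, and 0.041 without R26-WT replicate 3 or 0.042 without R26-TIR1(F74G) replicate 7.

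Neither STAT5 gene differed beyond the spread between libraries. Stat5a had 7757, 8742, 5560 and 5963 normalized counts in R26-WT and 7945, 6541, 8422, 7208, 5824 and 6711 in R26-TIR1(F74G), all inside the R26-WT range. Its log2 fold change was 0.021 (SE 0.16, 95% interval −0.3 to 0.34). Stat5b had 14853, 15653, 10445 and 11391 in R26-WT and 14133, 11848, 17726, 12362, 10344 and 12131 in R26-TIR1(F74G), with a log2 fold change of 0.00063 (SE 0.18, 95% interval −0.35 to 0.35). The signs of both small values turned with the surrogate variable, to −0.049 (SE 0.058) for Stat5a and −0.096 (SE 0.054) for Stat5b, without passing the threshold.

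**Figure D2:**
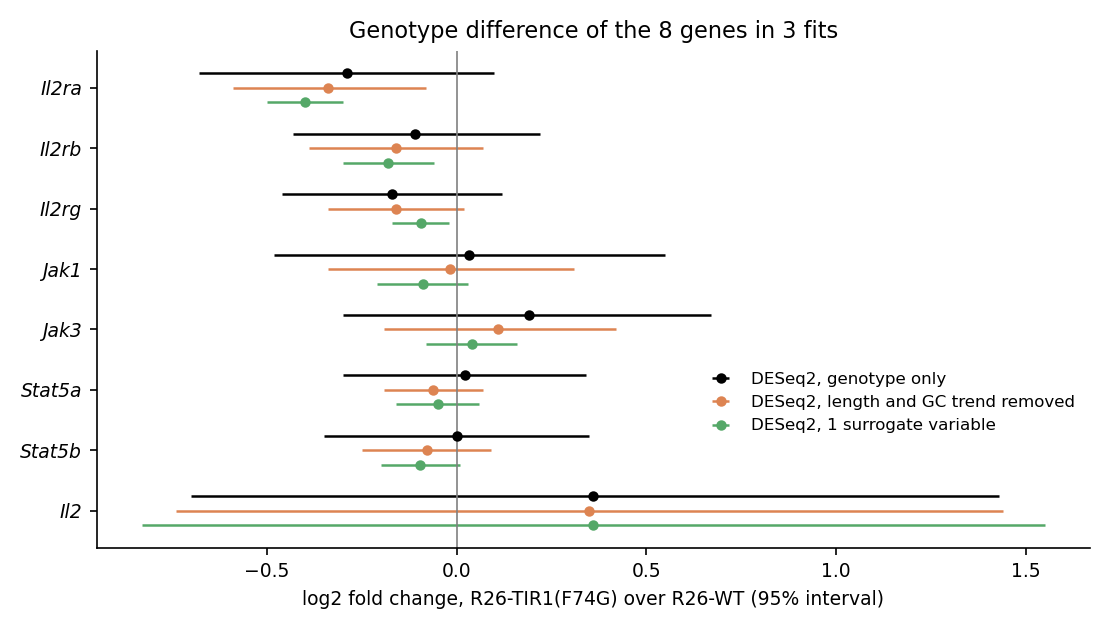
Log2 fold change of R26-TIR1(F74G) over R26-WT for the 8 genes, with 95% intervals, in 3 DESeq2 fits (genotype only, each library's length and GC trend removed, 1 surrogate variable). Il2ra lies at −0.29, −0.34 and −0.40, and the intervals of Il2 are the widest.

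Il2, the cytokine that Foxp3 represses, lay near the limit of detection in both genotypes. The raw counts were 17, 14, 10 and 5 read pairs in R26-WT replicates 1 to 4 and 10, 14, 11, 1, 20 and 18 in R26-TIR1(F74G) replicates 5 to 10. The lowest, 1 read pair in R26-TIR1(F74G) replicate 8, has an exact 95% Poisson interval of 0.0253 to 5.57, and the highest, 20 in replicate 9, one of 12.2 to 30.9. These intervals cover counting error only, since PCR copies are not independent molecules. The log2 fold change of 0.36 (SE 0.54, 95% interval −0.7 to 1.43) corresponds to a ratio of 1.29 with an interval of 0.614 to 2.69. The values varied within groups by 46.4% (R26-WT, CV) and 53.1% (R26-TIR1(F74G)), and the parts of counting error, spread between mice and the number of libraries in the width of the interval were not separated.

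Much of the spread was shared among the 7 abundant genes. R26-WT replicates 1 and 2 stood above replicates 3 and 4 by log2 differences of 1.0 for Jak1, 0.79 for Jak3, 0.57 for Il2ra, 0.52 for Stat5a, 0.48 for Il2rb and 0.48 for Stat5b. Il2rg had a difference of −0.39 between the same pairs. R26-TIR1(F74G) replicate 7 held the highest value of its group in all of those genes except Il2rg, where it held the lowest. Replicates 6 and 9 of R26-TIR1(F74G) lay on the side of R26-WT replicates 3 and 4 in Jak1, Jak3 and both Stat5 genes. After removal of the length and GC trend the differences between the R26-WT pairs were smaller, 0.64 for Jak1, 0.46 for Jak3, 0.33 for Il2rb, 0.28 for Il2ra, 0.17 for Stat5b, 0.08 for Stat5a and −0.2 for Il2rg. Il2 also differed between the R26-WT pairs, by 1.1 before and 1.49 after that removal, but these values rest on 5 to 17 read pairs per library, and R26-TIR1(F74G) replicate 7 was neither the highest nor the lowest of its group for Il2. The libraries stood apart in the same way over the whole transcriptome, where the first principal component of the 500 most variable genes held 60.5% of the variance and placed R26-TIR1(F74G) replicate 7 at one end and R26-WT replicates 3 and 4 at the other. Il2rg has the shortest exon length of the 7 genes, 2387 bases, and Jak1 the longest, 7227 bases. Per the labels the integrity of the RNA varied between libraries, but no value is tied to a library in the sources used here, and its part was not tested.

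**Figure D3:**
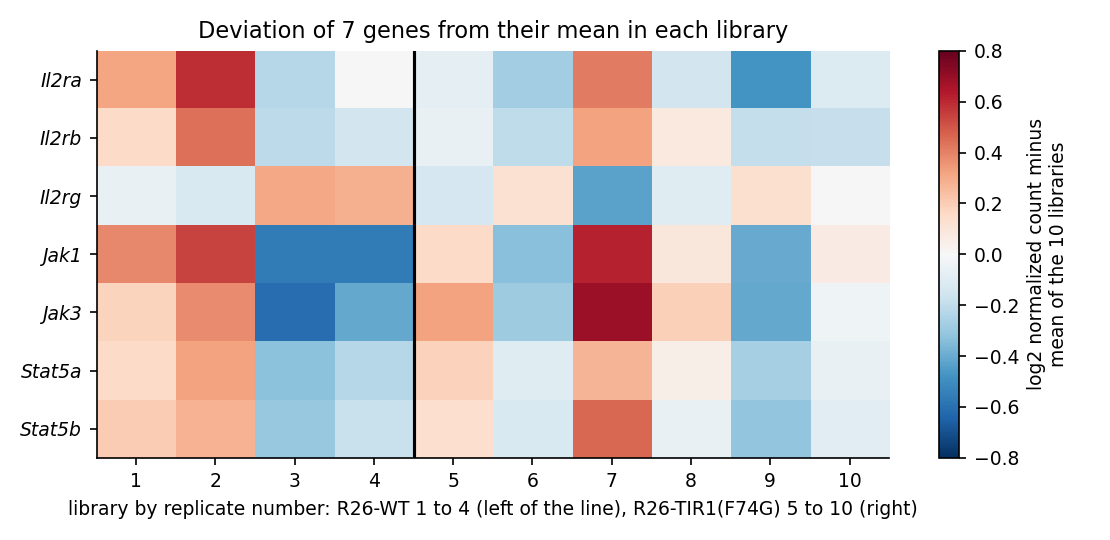
Log2 normalized count of 7 genes in each library minus that gene's mean over the 10 libraries (red above, blue below), with the R26-WT libraries left of the line. The rows of 6 genes share the pattern of high values in R26-WT replicates 1 and 2 and R26-TIR1(F74G) replicate 7, and the row of Il2rg runs the other way.

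Ratios of genes within a library are given as a description. The ratio of Il2ra to Il2rb in TPM was 0.248, 0.245, 0.218 and 0.245 in R26-WT and 0.219, 0.21, 0.235, 0.189, 0.181 and 0.233 in R26-TIR1(F74G), where 3 of 6 libraries were below the lowest R26-WT value and 0 above the highest. The groups overlapped only through R26-WT replicate 3, the one low library of its group. The ratio of Il2ra to Il2rg, genes that ran opposite ways over the libraries, was 0.137 to 0.325 in R26-WT and 0.13 to 0.355 in R26-TIR1(F74G). Its highest value was 2.74 times its lowest over the 10 libraries, against 1.37 times for Il2ra to Il2rb, so it cannot be read for a difference of that size. The ratio of Stat5b to Stat5a was 2.47, 2.31, 2.42 and 2.46 in R26-WT. In R26-TIR1(F74G) it was 2.29, 2.33, 2.71, 2.21, 2.29 and 2.33, with replicate 7 far above the others. Jak1 stood at 2.28 to 2.91 times the level of Jak3 in R26-WT and at 2.24 to 2.71 times in R26-TIR1(F74G).

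**Figure D4:**
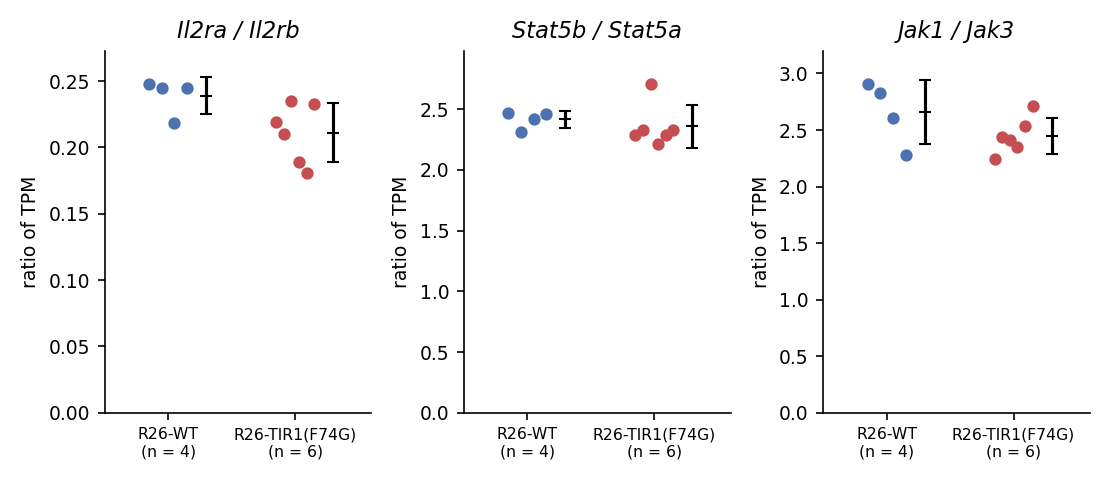
Ratio of TPM within each library for Il2ra over Il2rb, Stat5b over Stat5a and Jak1 over Jak3 (axes from 0), with 1 point per library and the mean with SD at the right of each group. In R26-TIR1(F74G), 3 libraries have a ratio of Il2ra to Il2rb of 0.181 to 0.21, below the lowest R26-WT value of 0.218.

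Around these 8 genes, 75 genes of the wider pathway were examined in 7 lists, and 72 were tested. DESeq2 called 2 of them higher and 4 lower in R26-TIR1(F74G), where it called 1.4% of all genes tested higher and 0.336% lower. By edgeR 2 were called, beside 0.373% of all genes. With the surrogate variable 4 were called higher and 6 lower, beside 2.86% and 1.68% of all genes, and these 10 were the 6 of the genotype-only fit and 4 more. The 4 were the IL-4 receptor chain Il4ra (0.55, SE 0.093, DESeq2 adjusted p 4.98e-07), the survival kinase Pim2 (0.42, SE 0.067, adjusted p 9.68e-08), the NF-kappaB subunit Rel (−0.30, SE 0.078, adjusted p 0.00567) and the STAT inhibitor Pias2 (−0.17, SE 0.056, adjusted p 0.0456). Il4ra, Pim2 and Rel are named after their values were seen. The median log2 fold change over the lists together came to 0.047.

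Among the ligands and partner receptors of the gamma chain, 8 of 10 genes were tested, with a median of 0.39. Of these 1 was called higher and 0 lower, beside 1.4% and 0.336% of all genes tested. The called gene was Il4, the cytokine of type 2 immunity, with 16.72, 9.839, 7.325 and 10.15 normalized counts in R26-WT and 75.89, 114.0, 144.4, 106.1, 365.6 and 89.42 in R26-TIR1(F74G). Every R26-TIR1(F74G) library was above every R26-WT library. Il4 rose by 3.76 on the log2 scale (SE 0.46, adjusted p 6.35e-13 by DESeq2 and 0.0109 by edgeR), and by 3.26 without R26-TIR1(F74G) replicate 9, its highest library. Il9r, the IL-9 receptor chain, had a value of 0.82 on that scale (SE 0.42, adjusted p 0.748 by DESeq2), with groups that overlapped. In the fits without 1 library Il9r lay between 0.53 (without R26-WT replicate 3) and 1.2 (without R26-WT replicate 1).

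Of 16 genes that IL-2 and STAT5 induce, 1 was called higher and 1 lower by DESeq2, beside 1.4% and 0.336% of all genes tested. By edgeR 0 were called, beside 0.373% of all genes, and the median was 0.024. Bcl2, which protects from apoptosis, had 35860, 48550, 36792 and 42320 normalized counts in R26-WT and 49017, 55092, 53690, 51372, 53244 and 55006 in R26-TIR1(F74G). These groups did not overlap, and Bcl2 rose by 0.37 on the log2 scale (SE 0.11, adjusted p 0.0431 by DESeq2). Pim1, a survival kinase, had 4483, 3537, 4847 and 4518 in R26-WT and 3306, 3125, 2363, 3378, 3080 and 2327 in R26-TIR1(F74G), again without overlap. It fell by 0.57 on the log2 scale (SE 0.15, DESeq2 adjusted p 0.0161). Both calls were close to the threshold, as edgeR called neither (adjusted p 0.192 for Bcl2 and 0.126 for Pim1). In the fits that left out 1 library, Bcl2 was called only without R26-WT replicate 2 (0.47, adjusted p 0.000242), with 0.31 to 0.39 in the other 9. Pim1 was called in 6 of the 10 and missed without R26-WT replicate 1 (adjusted p 0.104), 3 (0.149) or 4 (0.122) or R26-TIR1(F74G) replicate 10 (0.0527). Cish and Socs3, feedback inhibitors of cytokine signalling, were not called. Cish was at 12320 ± 575 normalized counts (SD, n = 4) for R26-WT and 13773 ± 1355 (SD, n = 6) for R26-TIR1(F74G), where 5 of 6 libraries were above the highest and 1 below the lowest R26-WT library (log2 fold change 0.16, SE 0.1, DESeq2 unadjusted p 0.12). Socs3 was at 17752 ± 1745 (SD, n = 4) and 21497 ± 3188 (SD, n = 6), with 4 of 6 R26-TIR1(F74G) libraries above the highest R26-WT library (0.28, SE 0.14, DESeq2 unadjusted p 0.0492, adjusted p 0.726). The largest value of the list, 0.97 (SE 0.75) for the granule protease Gzmb, rested on R26-TIR1(F74G) replicate 9 with 597.0 normalized counts beside 38.2 to 151.0 in the other 5 and 42.2 to 116.1 in R26-WT, and was 0.041 without it. Cish and Socs3 are named after their values were seen.

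The genes that IL-2 represses, Bcl6 and Il7r, had log2 fold changes of −0.052 (SE 0.24) and −0.0047 (SE 0.29), and 0 of 2 were called. Both turned sign without R26-WT replicate 2, to 0.19 for Bcl6 and 0.35 for Il7r. Bcl6 is the factor of follicular helper cells, and Il7r the receptor of IL-7.

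Of 7 other JAK and STAT genes 0 were called, with a median of 0.072. Jak2 had the largest value, 0.35 (SE 0.34), and Stat2, of the interferon pathway, the next with 0.23 (SE 0.26). Both were highest in R26-TIR1(F74G) replicate 7, with 12943 and 8547 normalized counts, the library that was also highest for Jak1 and Jak3. In the fits without 1 library Jak2 lay between 0.096 (without that replicate) and 0.62, and Stat2 between 0.044 (without R26-WT replicate 3) and 0.52. In the receptor-proximal adaptors and the PI3K arm 13 of 14 genes were tested and 0 called, with a median of 0.098. Mtor, the growth kinase, had 0.30 (SE 0.28) and Pik3cd, the lymphocyte PI3K subunit, 0.25 (SE 0.33), and both were highest in R26-TIR1(F74G) replicate 7, with 2184 and 47371 normalized counts. Without that library Mtor was at 0.0043 and Pik3cd at −0.0024. Of 12 negative regulators 0 were called, with a median of 0.0044, and the largest values were −0.13 (SE 0.11) for Pias2, called with the surrogate variable as given above, and −0.12 (SE 0.14) for Pias4, which encode inhibitors of STAT proteins. They were −0.071 without R26-WT replicate 2 (Pias2) and −0.039 without R26-WT replicate 4 (Pias4).

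The factors that act at the Il2 gene, whose promoter is printed above, held 3 of the 6 called genes. Of its 15 members 3 were called lower and 0 higher, beside 0.336% and 1.4% of all genes tested, with a median of 0.038, and the 3 encode subunits of AP-1, the partner of NFAT in T cell activation. Jun had 21828, 14585, 15185 and 13367 normalized counts in R26-WT and 11699, 9675, 8222, 9661, 10282 and 9894 in R26-TIR1(F74G), without overlap. It fell by 0.71 on the log2 scale (SE 0.16, DESeq2 adjusted p 0.00109, edgeR 0.0473). Junb had 68015, 40255, 63221 and 50328 in R26-WT and 38778, 34419, 28835, 35501, 37666 and 29252 in R26-TIR1(F74G), also without overlap. Junb fell by 0.70 (SE 0.17, DESeq2 adjusted p 0.00279, edgeR 0.0673), and its adjusted p was 0.0519 without R26-WT replicate 1. Fos had 7013, 3532, 3254 and 2703 in R26-WT and 3175, 2507, 2145, 2055, 1635 and 1897 in R26-TIR1(F74G), so the groups overlapped. Fos fell by 0.88 (SE 0.26, DESeq2 adjusted p 0.0493, edgeR 0.244), a call held in only 2 of the 10 fits without 1 library (without R26-WT replicate 4, −1.04, or R26-TIR1(F74G) replicate 5, −1.01). Without R26-WT replicate 1, the highest library for all 3 genes, the value of Fos was −0.50 (adjusted p 0.463). Jun, Junb and Fos are immediate early genes that also respond to the handling of cells, and the part of handling was not tested.

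**Figure D5:**
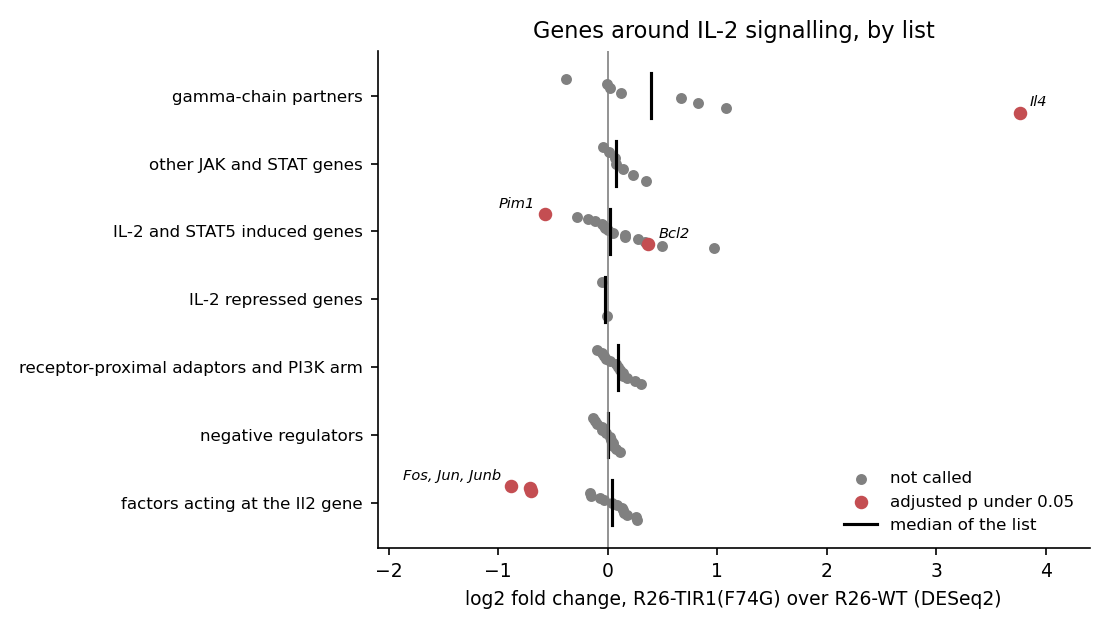
Log2 fold change of R26-TIR1(F74G) over R26-WT for the tested genes of 7 lists around IL-2 signalling, 1 point per gene, with the genes at an adjusted p under 0.05 in red and named, and a bar at each list's median. Il4 lies at 3.76, while the medians lie between −0.029 and 0.39.

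The genes whose levels over the 10 libraries were most like those of a member were found among 12437 genes by Pearson's r of log2 normalized counts. This is a description over libraries of unequal depth that hold the shared spread set out above. For Il2ra these were Paip2b (r = 0.966, rho = 0.927), Tatdn2 (0.966, rho = 0.939) and Gm44686 (0.96, rho = 0.915), and 75 genes had an r over 0.9. For Il2rb they were Zscan29 (r = 0.972, rho = 0.83), Rab27a (0.967, rho = 0.964) and Plcb3 (0.959, rho = 0.867), with 147 genes over 0.9. For Il2 the nearest were Fbxl19 (r = 0.859, rho = 0.758), Dhx58 (0.828, rho = 0.697) and Fbxw10 (0.825, rho = 0.418), and 0 genes exceeded 0.9. None of these 9 genes was called between genotypes.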

How the data were processed

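Poly(A) RNA of Treg cells was amplified (SMART-Seq v4, no molecular identifiers named) and sequenced in 10 libraries. The authors deposited raw, unnormalized read-pair counts per gene. Per the file headers, counting by the authors used featureCounts 2.1.1 and GENCODE M30 (GRCm39), unstranded, with a mapping quality of at least 30, and without pairs that overlap several genes, so overlapping genes are undercounted. The submitters' processing notes name Bowtie2, and the study's methods name STAR. All 37 mitochondrial rows were at 0.

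Groups were taken from the labels. Genes whose mean count was 10 or more, 16363 in all, were fitted with DESeq2 1.42.0 in R 4.3.3 by its two-sided Wald test. The filter, the genotype-only formula and the threshold of an adjusted p under 0.05 are those of the study's methods. Alternatives were edgeR 4.0.16, limma 3.58.1 voom with quality weights, TMM factors, no filter or a mean of at least 50, 1 surrogate variable (sva 3.50.0), removal of length and GC trends, and leaving out each library. The surrogate variable with each library left out, and in edgeR, were added after seeing the data. Scripts were tested on simulated counts. Counts were normalized by the size factors of DESeq2, and TPM used the exon lengths in the files. Intervals are 95%.

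The 8 genes, the 7 pathway lists and the 9 marker lists were chosen with earlier results of these data known, and 1 of the marker lists is not reported here. Named beyond the 8 genes were the called genes of each pathway list, the 2 of each list with the largest change among those averaging 50 or more normalized counts, and the 3 genes most like Il2ra, Il2rb and Il2. Further named were Foxp3, genes that share exon bases or sequence with the 8, and some marker genes. Genes picked after their values were seen are marked so where they appear, except Cd79a and Cd79b, the other tested B cell markers. The depth of 24158699 to 54795718 read pairs sets the counting error, and amplification may add to it.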

Additional observations from a re-analysis of the deposited data

Results flagged for a closer look

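A value was looked at again where 1 library lay far from the others of its group, by Dixon's criterion for groups of 4 and 6. Of 84 groups of values examined 9 met it, and chance alone meets it in about 1 of 20 groups, or 4.2 here. R26-TIR1(F74G) replicate 7 was the highest of its group for Foxp3 (16059 normalized counts, against 6778 to 9851 in the other 5), for Jak2 (12943, against 4604 to 7523), for Mtor (2184, against 829.6 to 1103) and for the ratio of Stat5b to Stat5a in TPM (2.71, against 2.21 to 2.33). R26-TIR1(F74G) replicate 9 was the highest for Il4 (365.6, against 75.89 to 144.4), for Gzmb (597.0, against 38.2 to 151.0) and for the summed activated Treg markers (23331, against 15461 to 17896), a list that holds Gzmb. In R26-WT, replicate 4 was the lowest for those markers (16617, against 18187 to 18477) and replicate 3 for the ratio of Il2ra to Il2rb (0.218, against 0.245 to 0.248). None of the 8 genes met the criterion by its own normalized count.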

How the results depend on the processing

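Of the 8 genes, 0 were called under edgeR, limma voom, TMM factors, no filter on low counts, a mean count of at least 50 (where Il2 was not tested), the removed length and GC trend, or in any of the 10 fits without 1 library, and Il2 had no adjusted p without R26-TIR1(F74G) replicate 9. With 1 surrogate variable 1 was called (Il2ra, −0.40), as with that variable in edgeR (1 gene, −0.40), and leaving out each library in that fit gave 1 to 2 called genes, with −0.42 to −0.36 for Il2ra and −0.21 to −0.12 for Il2rb. The direction of Il2ra, Il2rg, Jak3 and Il2 was the same in all alternatives. Jak1 turned to −0.089 with the surrogate variable, −0.092 with it in edgeR, −0.12 to −0.036 with it when a library was left out, and −0.017 with the trend removed. Stat5a turned to −0.049, −0.053, −0.076 to −0.0048, and −0.061 in the same fits, and Stat5b to −0.096, −0.099, −0.12 to −0.077, and −0.077. Stat5b was also at −0.0041 in edgeR and with TMM factors. Leaving out 1 library from the genotype-only fit gave −0.41 to −0.13 for Il2ra, −0.19 to 0.034 for Il2rb, −0.24 to −0.10 for Il2rg, −0.12 to 0.25 for Jak1, 0.041 (without R26-WT replicate 3) to 0.37 (without R26-WT replicate 2) for Jak3, 0.11 (without R26-WT replicate 4) to 0.56 for Il2, −0.074 to 0.15 for Stat5a and −0.11 to 0.099 for Stat5b. The cause was not tested.

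Over all genes 284 were called, against 61 in edgeR, 80 in limma voom and 743 with the surrogate variable (416 with it in edgeR, 512 to 789 when a library was left out). Leaving out 1 library gave 187 (without R26-WT replicate 4) to 346. Of the pathway genes 6 were called, against 2 in edgeR, 10 with the surrogate variable, and 2 to 6 when a library was left out (2 if this was R26-WT replicate 1, and 3 if it was R26-WT replicate 3 or R26-TIR1(F74G) replicate 10). The Il2rg to Il2ra ratio of median levels was 5.36 in TPM and 5.26 per kilobase and size factor. Both leave out the read pairs that Il2rg shares with Gm20489 and may be too low. No paired analysis was run, since the labels used here name no pairs, litters or batches (R26-WT has replicates 1 to 4 and R26-TIR1(F74G) replicates 5 to 10). The study's methods state that controls were littermates unless said otherwise, so such a structure may exist.

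The number of libraries, 4 and 6, and the spread between them limit all of these intervals, and Il2 had 1 to 20 read pairs per library; the parts of depth and spread were not separated.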
